A study of Mus musculus with 6 samples.

Results

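The amino acid and neurotransmitter transporters described here are the members of 6 solute carrier families whose gene symbols begin with Slc1a, Slc3a, Slc6a, Slc7a, Slc38a or Slc43a. The platform annotation gave 117 probe sets for 56 such genes, out of 45037 probe sets and 18193 genes tested. A further 3 probe sets belong to Slc6a19os and Slc7a6os, opposite-strand genes whose symbols begin alike, and were set aside. RNA of stria vascularis, the potassium-secreting epithelium of the cochlear lateral wall, was compared between adult wild type mice (Slc26a4+/+, age P148 ± 3 in the Methods) and mice that lack the anion exchanger pendrin (Slc26a4-/-, P153 ± 1), both of the 129S6 strain according to the series title. Each genotype was measured on 3 arrays, each with RNA pooled from 2 animals that had not been perfused, and the RNA went through 2 rounds of amplification. The knockout is constitutive, so pendrin is missing from all tissues throughout life, and no other allele, agent or treatment is given for either genotype.

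Amino acids cross plasma membranes on carriers with different motors. SLC1 carriers take up glutamate or small neutral amino acids against steep gradients, SLC6 carriers use sodium and chloride to take up neurotransmitters, taurine, creatine and amino acids, and SLC38 carriers use sodium to take up glutamine and other small neutral amino acids. Most SLC7 carriers are either uniporter-like carriers of arginine and lysine or light chains of exchangers that reach the membrane only when joined to an SLC3 heavy chain. SLC43 carriers include facilitators that let branched-chain and aromatic amino acids leave or enter cells without exchange. In the stria a barrier of endothelial cells separates blood from the intrastrial space, so that amino acids have to pass on carriers.

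Of the 56 genes 5 were higher in Slc26a4-/- and 0 were lower (limma, adjusted p under 0.05). They were Slc7a5 and Slc3a2, which encode both chains of the exchanger LAT1, Slc43a2, which encodes the facilitator LAT4, its relative Slc43a3, and Slc38a5, which encodes the glutamine carrier SNAT5. These 5 were 8.93% of the transporter genes, beside 1.88% of all genes that were higher, and 0.803% of all genes were lower. Counted over probe sets, 5 of 117 were higher and 0 lower, beside 1.19% and 0.54% of all probe sets. Without adjustment the p was under 0.05 for 7 higher genes and 1 lower gene, where 8.48% and 6.42% of all genes passed. On the arrays the genotypes did not overlap for 7 higher genes, 12.5% beside 11.2% of all genes, and for 6 lower ones, 10.7% beside 9.73%. The median log2 fold change of the 56 genes was -0.22, beside -0.03 over all genes, and 31 of the 56 were not above background, so that no shift of the families is read from it. Both shares of genes that did not overlap thus stood near those of all genes.

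Signals are the intensities of probe sets after the scaling that the authors' software applied to each array. The 44 probe sets of olfactory receptors, genes not expected outside the nose, set the background at their 95th percentile, which ran from 187 to 319 over the arrays. On this measure 25 of the 56 genes were above background on at least 2 arrays of a genotype, 44.6% beside 58.4% of all genes. The families differed in this: 8 of 9 Slc38a genes, 6 of 15 Slc7a genes, 3 of 7 Slc1a genes and 5 of 20 Slc6a genes were above background. Some genes, Slc43a3 among them, passed this filter through Slc26a4-/- alone.

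The arrays had mean signals from 666 to 725. The 3' to 5' signal ratio of Gapdh, a measure of RNA or cRNA length, was 2.25, 7.19 and 10.5 with pendrin and 3.34 to 3.80 without it. Slc26a4 itself gave signals of 1354, 1262 and 793 for Slc26a4+/+ and of 520.2, 717 and 618.5 for Slc26a4-/-, a change of -0.85 on the log2 scale (SE 0.23, adjusted p = 0.119 from limma). The labels are not checked by this, the position of its probes relative to the deleted part being not given in the sources used here. The 3 Y-linked genes Eif2s3y, Uty and Kdm5d were below background on every Slc26a4-/- array. For Slc26a4+/+ Eif2s3y read 1540.8, 639.9 and 805.1, Uty 696.8, 376.7 and 703.2, and Kdm5d 434.7, 226.7 and 428.1. Eif2s3y and Uty were thus above background on all 3 Slc26a4+/+ arrays and Kdm5d on 2. Each passed as lower in Slc26a4-/- (adjusted p = 7.67e-05, 0.000941 and 0.00641 from limma). Xist read 771, 3358 and 1022 for Slc26a4+/+ and 5529.6 to 5863 for Slc26a4-/- without passing the threshold (adjusted p = 0.0510), and the sex of the animals and the genotype cannot be told apart. Of the markers fixed for each strial cell type, 8 of 8 for marginal cells, 9 of 10 for intermediate cells and 6 of 6 for basal cells were above background, whereas 1 of 8 for hair and supporting cells and 3 of 9 for neurons and Schwann cells were.

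LAT1 exchanges large neutral amino acids such as leucine, phenylalanine and tyrosine across the plasma membrane. Its light chain gene Slc7a5 (chr8:121881146-121907686 in GRCm38.p6) had signals of 532, 674 and 561 for Slc26a4+/+ and 2202, 1819.6 and 2020.4 for Slc26a4-/-. The genotypes did not overlap, and the mean rose from 589 ± 74.7 to 2014 ± 191 (SD, n = 3 arrays each). The change on the log2 scale was 1.78 (SE 0.16, adjusted p = 0.000483 from limma), which is 3.43-fold. Slc3a2 (chr19:8706882-8723369) encodes the heavy chain 4F2hc, also known as CD98, which carries LAT1 and several other light chains to the membrane. Its signals were 3807, 3599.6 and 3442 for Slc26a4+/+ and 5634.5, 6314 and 6199 for Slc26a4-/-. Again all 3 Slc26a4-/- arrays lay above all 3 Slc26a4+/+ arrays, and the mean rose 1.67-fold from 3616 ± 183 to 6049 ± 364 (SD). The change of Slc3a2 on the log2 scale was 0.74 (SE 0.13, adjusted p = 0.0188). In bulk tissue a change in the number of cells of a type and a change in RNA per cell cannot be told apart. The Slc7a5 call held in 17 of 19 alternative settings and that of Slc3a2 in 11, and Slc3a2 missed the threshold when any 1 Slc26a4-/- array (adjusted p 0.0886 to 0.156) or Slc26a4+/+ replicate 2 (0.0846) was left out.

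**Figure D1:**
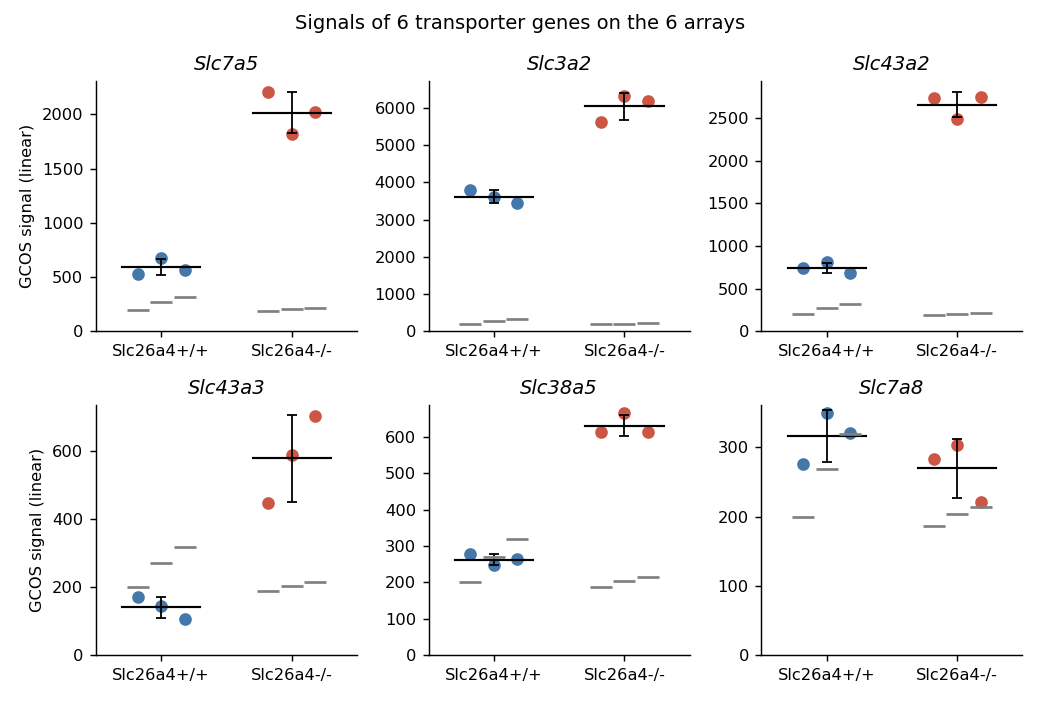
GCOS signals on a linear axis from 0 of the 5 genes that passed the test and of Slc7a8, which did not, on the 3 Slc26a4+/+ arrays (blue) and the 3 Slc26a4-/- arrays (red). Black lines and bars are the mean ± SD and grey marks the background of each array. The genotypes do not overlap for the 5 genes, and Slc43a3 lies below background on all Slc26a4+/+ arrays.

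The other light chains that pair with 4F2hc did not pass the test. Slc7a8 encodes LAT2, an exchanger of neutral amino acids in epithelia, and had signals of 276, 350.5 and 321 for Slc26a4+/+ and 283, 304 and 222 for Slc26a4-/-. These ranges overlapped, with a log2 fold change of -0.24 (95% interval -0.75 to 0.28, adjusted p = 0.762). Slc7a6, the light chain of y+LAT2, which exchanges arginine for neutral amino acids, overlapped too, with a log2 fold change of -0.26 (adjusted p = 0.849). Slc7a7, the gene of the related y+LAT1, was below background on all arrays at the probe set that stands for it (log2 fold change 0.04). A second Slc7a7 probe set gave 116, 90.5 and 16 for Slc26a4+/+ and 167, 284 and 145 for Slc26a4-/-. That probe set did not overlap between genotypes but was above background on 1 array alone and did not pass (adjusted p = 0.338). Slc7a11, the cystine and glutamate exchanger that supplies cysteine for glutathione, and Slc7a10, which carries small neutral amino acids such as serine, had log2 fold changes of -0.71 and -0.12 at signals near or below background.

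The second heavy chain, rBAT, and its light chains were not measured above background in stria vascularis. Slc3a1, the gene of rBAT, had signals of 122, 105 and 184 for Slc26a4+/+ and 94.3, 48.8 and 9.7 for Slc26a4-/-. All of these are below background, so that its log2 fold change of -1.91 (unadjusted p = 0.0326, adjusted p = 0.353 from limma) compares background signals. Slc7a9, the light chain with which rBAT reabsorbs cystine in the kidney, and Slc7a13 were below background on all arrays as well.

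Of the 3 SLC43 genes 2 passed. Slc43a2 (chr11:75529915-75577575), the gene of LAT4, which lets leucine, phenylalanine and methionine move down their gradient, had signals of 744, 807 and 689 for Slc26a4+/+ and 2738, 2493 and 2751 for Slc26a4-/-. No array of either genotype reached the range of the other, and the mean rose from 747 ± 59.1 to 2661 ± 145 (SD, n = 3). The change was 1.84 on the log2 scale (SE 0.14, adjusted p = 0.000196 from limma), which is 3.57-fold. A second Slc43a2 probe set read 146, 191 and 190.4 against 274, 285 and 232, again without overlap, and did not pass (adjusted p = 0.400). That set was below background on all Slc26a4+/+ arrays and at least 1.02-fold higher, and the remaining set was below background on all 6. Slc43a3 (chr2:84936545-84958509), whose product has been described as a carrier of purine nucleobases, not amino acids, had signals of 170, 143 and 107 for Slc26a4+/+ and 447, 587 and 702 for Slc26a4-/-. Since every Slc26a4+/+ signal lay below background, Slc43a3 was at least 2.21-fold higher in Slc26a4-/- (adjusted p = 0.00513 from limma), a bound set by the background of the arrays. Slc43a1, the gene of LAT3, had a log2 fold change of -0.59 and was not above background on 2 arrays of either genotype. The Slc43a2 call held in 17 of 19 alternative settings and that of Slc43a3 in 15, and Slc43a3 missed the threshold without Slc26a4-/- replicate 3 (adjusted p = 0.0554).

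SLC38 was the family measured most widely, and 1 of its 9 genes passed. Slc38a5 (chrX:8271381-8280179), the gene of SNAT5, which moves glutamine, asparagine, histidine and glycine in either direction, had signals of 277, 246 and 264 for Slc26a4+/+ and 613, 664.5 and 614.5 for Slc26a4-/-. The genotypes lay apart, with means of 262 ± 15.4 and 631 ± 29.4 (SD, n = 3) and a change of 1.27 on the log2 scale (SE 0.18, adjusted p = 0.00747 from limma). On the Slc26a4+/+ arrays Slc38a5 was above background on 1 of 3, although all 3 signals exceeded the highest background of the Slc26a4-/- arrays, 213.8. Its call was lost when any 1 of the Slc26a4-/- arrays was left out (adjusted p 0.0602 to 0.0733) and held in 13 of 19 settings. Slc38a3, which encodes the related glutamine carrier SNAT3, had 284, 289 and 466.5 in Slc26a4+/+ against 279, 232 and 242. The Slc26a4-/- range lay just below that of Slc26a4+/+ without overlap, and the log2 fold change of -0.43 did not pass (adjusted p = 0.575).

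The SLC38 genes with the clearest signals over background showed no call. Slc38a2, the gene of the widespread carrier SNAT2, had signals of 7331, 7358 and 6574 for Slc26a4+/+ and 6328, 5759.8 and 6702 for Slc26a4-/-. Its log2 fold change was -0.18 (95% interval -0.47 to 0.12, adjusted p = 0.664 from limma). Slc38a1, the gene of SNAT1, had 3189.8 to 3569 and 2947 to 3382, with a log2 fold change of -0.08 (95% interval -0.37 to 0.20). At these probe sets the ranges of the genotypes overlapped for both carriers. A second Slc38a1 probe set read 2970.6, 3227.8 and 3282.1 for Slc26a4+/+ against 2577.8, 2721.2 and 2921.4. That set did not overlap between genotypes, with a log2 fold change of -0.21, and did not pass (adjusted p = 0.592 from limma). Slc38a9, a lysosomal sensor of arginine, had a log2 fold change of -0.37 at its main probe set (adjusted p = 0.500). Another of its sets, below background on all Slc26a4+/+ arrays, read 187, 193.5 and 80.4 against 191.5, 255 and 258 and did not pass either. Slc38a10 had -0.27 at its main probe set, whose Slc26a4+/+ signals spread from 9003 to 16440.0. Slc38a6 lay above the Slc26a4+/+ range on all Slc26a4-/- arrays (605, 555 and 644 against 757, 949 and 968.5), but its log2 fold change of 0.56 did not pass (adjusted p = 0.171).

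**Figure D2:**
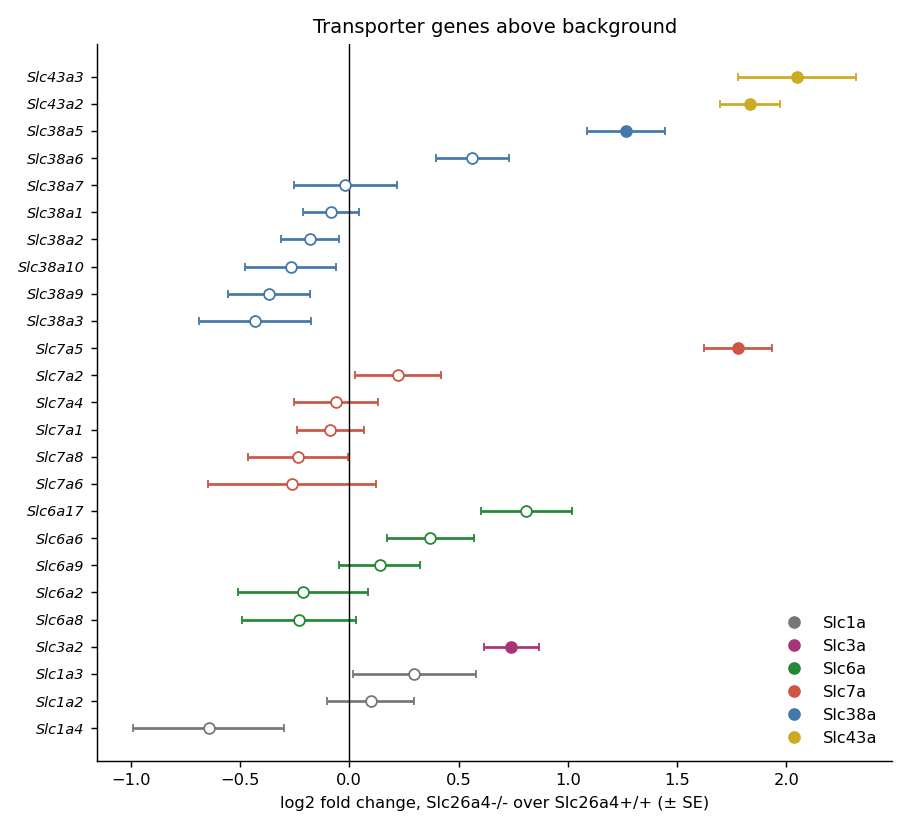
Log2 fold change ± SE from limma, Slc26a4-/- over Slc26a4+/+, of the 25 transporter genes above background, coloured by family, with filled points for adjusted p under 0.05. Values from Slc1a4 at -0.64 to Slc43a3 at 2.05 are shown, and the 5 filled genes all lie to the right. The value of Slc43a3 is a fitted one for a gene below background in Slc26a4+/+.

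The carriers of arginine and lysine had no call. Slc7a1, the gene of CAT1, the main arginine carrier of most cells, had signals of 4236, 5217 and 5947 for Slc26a4+/+ and 4648, 4685 and 5042 for Slc26a4-/-. These overlapped, with a log2 fold change of -0.09 (95% interval -0.43 to 0.25, adjusted p = 0.876 from limma). Slc7a2, the gene of CAT2, a carrier that macrophages use to take up arginine, had signals of 1373, 879 and 959 against 1085, 1179 and 1440.1, which overlapped too, and a log2 fold change of 0.22 (adjusted p = 0.731).

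The carriers of dopamine (Slc6a3) and serotonin (Slc6a4) and the neuronal glycine carrier GlyT2 (Slc6a5) were below background on all arrays. Slc6a2, the noradrenaline carrier, was above it on 1 of 3 Slc26a4+/+ and 2 of 3 Slc26a4-/- arrays, with overlapping signals of 185.5 to 358 and 183.5 to 254 (log2 fold change -0.21, adjusted p = 0.843 from limma). Slc6a8, the creatine carrier, had signals of 3920.5, 7775 and 8759 for Slc26a4+/+ and 5374, 5758 and 5341 for Slc26a4-/-. The Slc26a4+/+ arrays spread on both sides of the Slc26a4-/- arrays, with a log2 fold change of -0.23 (95% interval -0.81 to 0.35, adjusted p = 0.798 from limma). Without Slc26a4+/+ replicate 1, the array with the lowest Slc6a8 signal, Slc6a8 passed as lower (adjusted p = 0.0287), and with this array as the sole Slc26a4+/+ array its log2 fold change turned to 0.49 (adjusted p = 0.0548). Slc6a6, the taurine carrier TauT, had 1103, 1445 and 1624 against 1458, 2212 and 1734, a log2 fold change of 0.37 (adjusted p = 0.522). A second Slc6a6 probe set gave 533, 634 and 260.3 against 914, 639 and 855, without overlap, and 0.84 (adjusted p = 0.306). Slc6a9, the glycine carrier GlyT1, had a log2 fold change of 0.14 (adjusted p = 0.831). Slc6a17, which loads neutral amino acids into synaptic vesicles of neurons, had signals of 247, 340.3 and 363 for Slc26a4+/+ and 550.1, 531 and 564 for Slc26a4-/-. The genotypes did not overlap, but its log2 fold change of 0.81 (SE 0.21) did not pass (adjusted p = 0.102).

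The SLC1 genes had no call. Slc1a3, the gene of the glutamate carrier GLAST, which glia and supporting cells of the ear use to clear glutamate, is measured by 6 probe sets. The one that stands for it gave 280.1, 297 and 586 for Slc26a4+/+ and 435.5, 434 and 479 for Slc26a4-/-, which overlapped (log2 fold change 0.30, adjusted p = 0.750 from limma). Of the other 5 Slc1a3 probe sets 4 were below background on all 6 arrays and the remaining one on all Slc26a4+/+ arrays, and none passed. Slc1a2, the glutamate carrier GLT-1, had a log2 fold change of 0.10 (95% interval -0.35 to 0.55), with signals of 423.5 to 479 and 402.5 to 606. Slc1a4, the neutral amino acid carrier ASCT1, had -0.64 (adjusted p = 0.522), with overlapping signals near background.

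**Figure D3:**
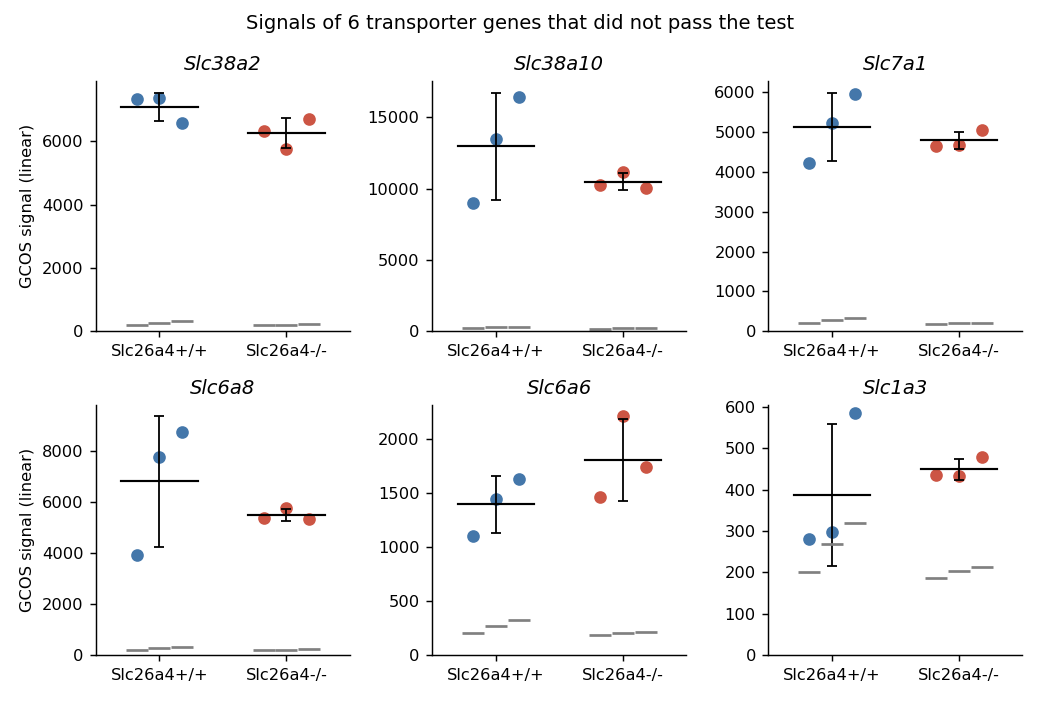
GCOS signals on a linear axis from 0 of 6 transporter genes that did not pass the test, with the mean ± SD in black and the background of each array in grey. For Slc38a2, Slc38a10, Slc7a1, Slc6a8, Slc6a6 and Slc1a3 the 3 Slc26a4+/+ arrays (blue) and the 3 Slc26a4-/- arrays (red) overlap.

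Sequence before the start of the risen genes was taken from RefSeq (GRCm38.p6), since these genes were called together. An entry was held for Slc3a2, Slc38a5 and Slc43a2, and the 250 bases before the start are given 5′ to 3′ on the strand of the gene, with the E-box letters CACGTG in capitals. Slc3a2 is read on the minus strand of chr19:8713898-8714147, Slc38a5 on the plus strand of chrX:8271131-8271380 and Slc43a2, at the first of its 2 starts, on the plus strand of chr11:75531444-75531693. The windows of Slc3a2 and Slc43a2 lie within the gene spans given above, before starts inside those spans. That of Slc38a5 lies just before its span. Sequence before the outer 5′ end of the Slc3a2 and Slc43a2 spans was not searched.
Slc3a2: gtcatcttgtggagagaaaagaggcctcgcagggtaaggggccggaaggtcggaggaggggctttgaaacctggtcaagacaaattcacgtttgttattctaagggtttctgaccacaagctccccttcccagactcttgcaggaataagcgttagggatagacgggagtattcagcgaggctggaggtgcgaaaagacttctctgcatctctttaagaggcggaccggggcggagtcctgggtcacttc
Slc38a5: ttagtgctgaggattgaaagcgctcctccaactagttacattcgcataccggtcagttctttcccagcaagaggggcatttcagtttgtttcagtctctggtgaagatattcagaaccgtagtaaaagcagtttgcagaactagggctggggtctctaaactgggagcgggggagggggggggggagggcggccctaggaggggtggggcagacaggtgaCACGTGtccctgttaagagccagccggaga
Slc43a2: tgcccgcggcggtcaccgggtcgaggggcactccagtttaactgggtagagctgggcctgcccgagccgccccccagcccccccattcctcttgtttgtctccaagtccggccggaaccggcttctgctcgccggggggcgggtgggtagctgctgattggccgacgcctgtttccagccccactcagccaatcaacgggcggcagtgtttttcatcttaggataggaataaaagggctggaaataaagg
Both strands were searched for the letters TGATGNAA (the core of the amino acid response element), CACGTG and TGACNNNGC (the core of the antioxidant response element). Of these, CACGTG was found in Slc38a5, 30 bases before the start, and none in the windows of Slc3a2 or of either start of Slc43a2. Over all 32851 promoters, some genes having several, 3.45% of windows of 250 bases held TGATGNAA, 6.02% CACGTG and 10.2% TGACNNNGC. Among the 61 promoters of the 40 transporter genes with an entry, 4 (6.56%), 8 (13.1%) and 9 (14.8%) held these letters. A match of letters is a description of the sequence and not a site of binding.

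Genes that make, use or sense the carried amino acids were counted beside the shares of all genes that passed, 1.88% higher and 0.803% lower. Of 20 genes known to be induced through ATF4, the transcription factor of the amino acid response, 1 was higher and 1 lower, with a median log2 fold change of -0.10 beside -0.03 over all genes. The higher one, Atf3, a stress-induced transcription factor, was below background on all Slc26a4+/+ arrays and at least 2.06-fold higher (adjusted p = 0.042 from limma). The lower one, Phgdh, the first enzyme of serine synthesis, had signals of 2804, 2937 and 4133 for Slc26a4+/+ and 1240.2, 1193 and 1526 for Slc26a4-/-. It was 2.47-fold lower in Slc26a4-/- (adjusted p = 0.00676), with no overlap between the genotypes. None of 23 genes of amino acid sensing by mTORC1 and none of 18 aminoacyl-tRNA synthetases passed, Vars, the valine enzyme, among them (279.5, 387 and 382 against 845, 613.5 and 628, adjusted p = 0.0535). At an unadjusted p under 0.05 there was 1 lower gene among the first list and 1 higher gene among the second.

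Other transport and amino acid genes were counted beside the same shares. In taurine and creatine synthesis 1 of 7 genes rose, Gatm, the first enzyme of creatine synthesis, which was below background on all Slc26a4+/+ arrays and at least 2.29-fold higher in Slc26a4-/- (549, 583 and 648 against 170.0, 97.1 and 111, adjusted p = 0.00276 from limma). Of 9 other carriers of amino acids and peptides 1 rose, Slc15a3, a lysosomal peptide and histidine carrier, at least 1.21-fold (adjusted p = 0.0408). A list of 8 genes drawn up for regulators and chaperones of transport also held arginases, which are neither. In it the mitochondrial arginase Arg2 fell by 0.83 on the log2 scale, from 1264 ± 232 to 704 ± 54.0 (SD, adjusted p = 0.0434 from limma). No gene passed among 4 SLC36 carriers, 7 vesicular neurotransmitter carriers, 6 mitochondrial carriers, 14 enzymes of glutamate, glutamine, GABA and glycine, 11 genes of glutathione synthesis and 21 receptors of glutamate, GABA and glycine. At an unadjusted p under 0.05 these lists held 0, 0, 0, 3, 1 and 1 higher and 0, 0, 1, 1, 1 and 2 lower genes, where 8.48% of all genes were higher and 6.42% lower.

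Markers of cell types were counted beside the shares of all genes that passed, 1.88% higher and 0.803% lower. Of 17 macrophage markers 12 were higher and 0 lower, with a median log2 fold change of 2.09, and their summed signal was 9254.5 to 11990.2 for Slc26a4+/+ and 49818 to 51269 for Slc26a4-/-. Cd163 was below background on all 6 arrays, Cd68 was below it on the Slc26a4+/+ arrays (125, 174 and 211 against 1313, 1441 and 1278), and no marker was at 0. Of 12 fibrocyte markers 6 were higher and 0 lower, with a median of 0.68 and sums of 22079 to 25878 against 31803 to 33741. Of 16 markers of endothelial cells and pericytes, cells of the strial capillary, none passed, and the median log2 fold change was 0.55. At an unadjusted p under 0.05 from limma 7 were higher and 0 lower, beside 8.48% and 6.42% of all genes. The endothelial and pericyte sums of 9828.5 to 15358 and 15201 to 19047 overlapped. Among 8 marginal cell markers 2 were lower, Kcne1 and Atp13a5, with sums of 60952 to 76526 and 44108 to 47162. Of 10 intermediate cell markers the pigment genes Tyrp1 and Pmel were higher, and the sums overlapped. Among 6 spindle and root cell markers 1 was higher, P2rx2, and 0 lower. Among 9 neuron and Schwann cell markers 1 was higher, Pmp22, and 0 lower. The part of these cell types in the signals of Slc7a5, Slc3a2, Slc43a2, Slc43a3 and Slc38a5 was not tested.

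**Figure D4:**
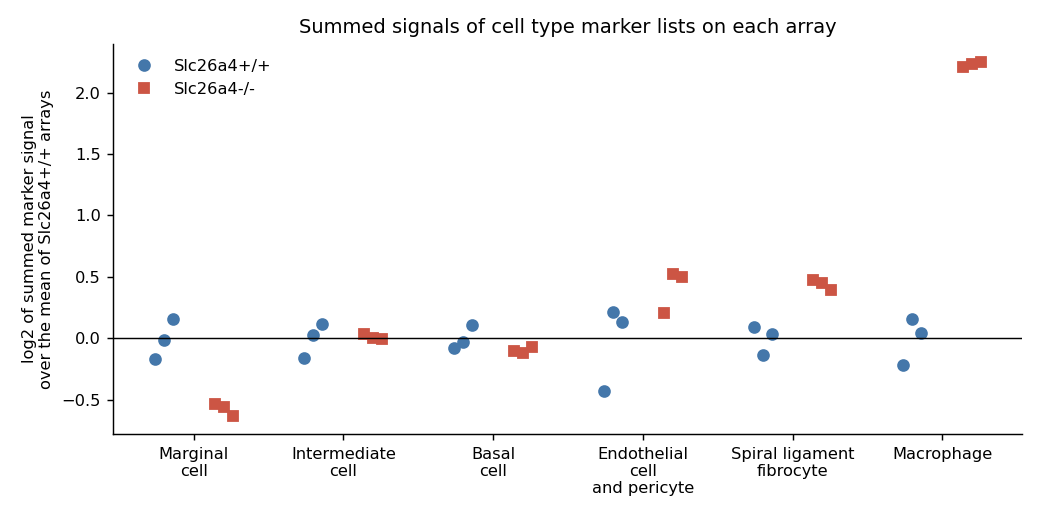
Summed signal of each cell type's marker list on each array, as log2 over the mean of the Slc26a4+/+ arrays (circles for Slc26a4+/+, squares for Slc26a4-/-). The macrophage sums of the Slc26a4-/- arrays lie at 2.21 to 2.25, the fibrocyte sums at 0.39 to 0.47 and the marginal cell sums at -0.63 to -0.54, all apart from the Slc26a4+/+ arrays.

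Among the 19 alternative settings the 5 calls differed in how often they held. For Slc7a5, Slc3a2, Slc43a3 and Slc38a5, with 1 probe set each, the mean of a gene's probe sets left the log2 fold change unchanged. The methods' t-test with Benjamini-Hochberg adjustment passed 0 of all 45037 probe sets, so its lost calls are not particular to these genes. With the signal of Xist as a covariate 0 of the 117 probe sets passed either way, and 27 of all 45037 did. Xist hardly varied within Slc26a4-/- (5529.6 to 5863) and within Slc26a4+/+ mainly through replicate 2 (3358, against 771 and 1022). The covariate thus largely follows the genotype, so that fit cannot separate sex from genotype and is not read as an adjustment for sex. The log2 fold changes stayed above 0 in all 19 settings, as did the fitted values of Slc43a3. Those of Slc43a2 ran from 1.25 to 1.92, of Slc7a5 from 1.45 to 1.92, of Slc38a5 from 1.09 to 1.42 and of Slc3a2 from 0.67 to 0.82. With Slc26a4+/+ replicates 2 and 3 left out, the arrays with the high Gapdh ratio, 7 member probe sets were higher, those of the 5 genes among them (adjusted p 0.00143 to 0.0291), and 887 of all probe sets were. That fit has 1 Slc26a4+/+ array, which is assumed to vary like the Slc26a4-/- arrays, so its p-values hold no spread between Slc26a4+/+ pools.

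**Figure D5:**
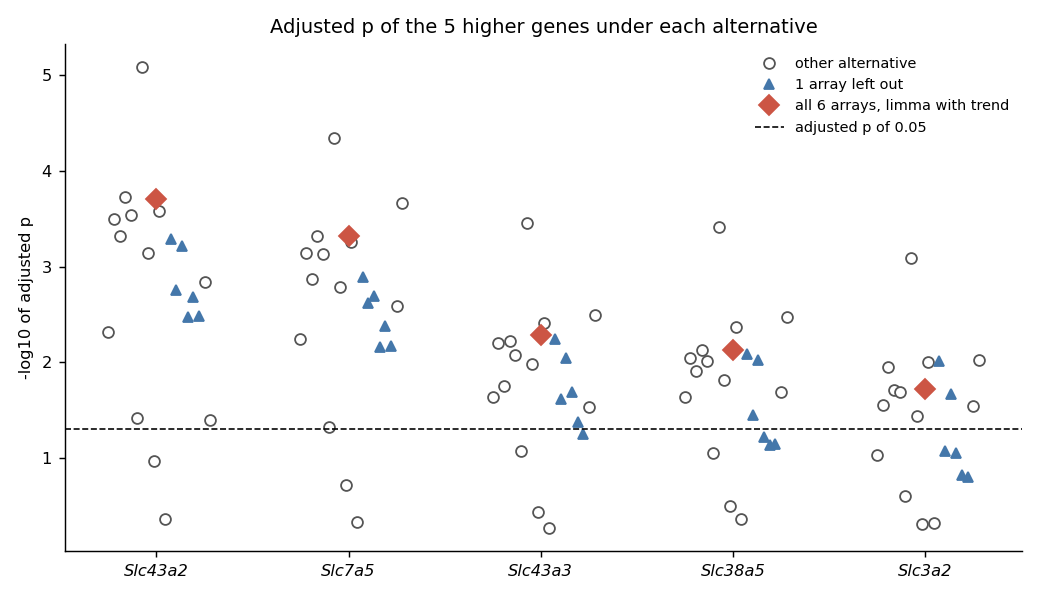
Adjusted p of the 5 higher genes on a -log10 scale, with all 6 arrays (diamonds), with 1 array left out (triangles) and under the other alternatives (open circles). Points above the dashed line pass the threshold of 0.05, as all 6 triangles do for Slc43a2 and Slc7a5, 5 for Slc43a3, 3 for Slc38a5 and 2 for Slc3a2.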

How the data were processed

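Per the labels and the Methods, stria vascularis RNA was hybridised to 6 Affymetrix mouse 430 2.0 arrays, 3 per genotype, and the authors deposited the linear intensity of every probe set, a signal scaled by GCOS (version and scaling target not given in the sources used here). Detection calls for each array were not used here. Of 45101 probe sets 64 controls were left out. The annotation gave 1 symbol for 34945 of those tested, several for 932, 1 of which held a member and was not counted, and none for 9160. The probe set of highest mean log2 signal represented a gene. Of the 56 genes 25 had 1 probe set and the rest 2 to 7. Members were found by symbol, and gene numbers changed 0 symbols.

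Signals under 1 (172 values) were set to 1. Log2 signals were compared with the functions lmFit and eBayes (with a trend) of limma 3.58.1, R 4.3.3, two-sided, with Benjamini-Hochberg adjustment over all probe sets and a threshold of 0.05. The test was checked for recovery of known changes in simulated signals. These changes were added only to probe sets above a set mean signal, with independent noise and no difference in sex or RNA length. The check therefore does not bear on signals near background or on those differences. Figures were drawn with matplotlib 3.10.9 in Python 3.11.15. A call against a genotype below background on all arrays is given as a bound, and its fitted value is shown in the plots and their captions alone. Intervals are 95% intervals of the log2 fold change. The precision is limited by 3 arrays per genotype, and since the sources used here do not say how the pools relate to litters or days, p-values measure the spread between pools.

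The main test did not pair the arrays. In the replicate block and the paired t-test, arrays of equal replicate number were paired. Deviations from the genotype means, over probe sets above background, correlated for pairs of equal number with r = 0.25, 0.155 and 0.105. Unequal numbers gave -0.242 to 0.127, the highest being Slc26a4+/+ replicate 3 with Slc26a4-/- replicate 2, above the equal pair of replicate 3 at 0.105. The pairing rests on the data alone, and the labels do not say what a number marks. Alternatives were array centring on the median or 75th percentile, quantile normalization, pseudocounts of 16 and 64, no trend, array weights, a replicate block, Xist as a covariate, a filter on background, the mean of a gene's probe sets, the paired t-test of the Methods, their rule on the ratio, and each array left out. The Methods name paired t-tests in general, but for the arrays they describe Present calls and the ratio and no test. The rule on the ratio was applied per probe set (mean signals over 1.3-fold apart) without its condition on Present calls and without averaging over the probe sets of a gene, so it calls more than the rule of the study. Leaving out both arrays of high Gapdh ratio was added after seeing the data.

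The members, gene lists and tests were chosen with earlier results of these data known. Named genes were those past the threshold, the 3 with the highest mean signal in each family, the 5 smallest p-values each way among genes above background, Slc3a1, Slc3a2, Slc1a3 and the light chains Slc7a5 to Slc7a11 and Slc7a13, and, in other lists, those past the threshold and the 2 smallest p-values. Slc6a17, Slc38a6, Slc6a2, Slc6a3, Slc6a4, Slc6a5 and Cd163 lie outside it and were named after their values were seen. The quantitative RT-PCR, microscopy and Western blots were not used.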

Additional observations from a re-analysis of the deposited data

How the results depend on the processing

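The 5 higher and 0 lower member probe sets stood beside 535 higher and 243 lower of all probe sets. With a replicate block, which pairs arrays of equal number, there were 5 and 0 (588 and 244 of all), and the block changed no call of a named gene. The higher count became 2 with no trend (93 of all) and 0 with Xist as a covariate (27). Array weights gave 8 higher and 3 lower (2372 and 1712 of all). The methods' t-test gave 8 higher and 4 lower at an unadjusted p under 0.05 (1782 and 2198 of all), and 0 and 0 after Benjamini-Hochberg (0 and 0). The methods' rule on the ratio, here without Present calls and with no test, gave 22 higher and 41 lower (7279 and 12218 of all), with 71 of the 117 probe sets not above background. With 1 array left out there were 2 to 5 higher and 0 to 2 lower: 3 higher without Slc26a4-/- replicate 1 or 2 (190 and 198 of all), 2 higher without Slc26a4-/- replicate 3 (165), and 2 lower without Slc26a4+/+ replicate 1 (666). Fewer arrays enter those fits, and the causes of the other shifts were not tested. Slc3a2 missed the threshold with median centring (adjusted p = 0.0927).

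Over the 27 named genes 511 values were counted as the same, 22 lost a call, 2 gained one and 25 changed sign, each of the last in a gene without a call. The same meant an equal direction and side of the threshold, taken on the unadjusted p for the t-test without adjustment. For the rule on the ratio, which has no p, it meant an equal direction and a difference under the pooled SD of the log2 signals. With 4 arrays (1 for Slc26a4+/+) the log2 fold changes turned to -0.16 for Slc7a2, 0.18 for Slc7a1, 0.21 for Slc43a1, 0.22 for Slc38a10, 0.32 for Slc7a6, 0.35 for Slc7a13 and 0.49 for Slc6a8. With the mean of a gene's probe sets they turned to -0.16 for Slc6a9, -0.18 for Slc1a3, -0.44 for Slc1a2, 0.060 for Slc38a9, 0.12 for Slc38a10 and 0.29 for Slc38a3. Xist as a covariate gave -0.069 for Slc6a9, -0.41 for Slc7a7, 0.026 for Slc7a10 and 0.24 for Slc7a11, and array weights -0.040 for Slc7a7. With 1 array left out the log2 fold change of Slc7a7 ran from -0.20 to 0.26, of Slc6a9 from -0.017 to 0.26, of Slc7a1 from -0.22 to 0.027, of Slc7a6 from -0.55 to 0.16 and of Slc1a2 from -0.056 to 0.24. With the 90th or the 99th percentile as background 27 or 23 of the 56 genes were above it. Signal near background limits Slc43a3, Slc38a5, Slc7a7, Slc3a1 and most SLC6 genes.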
